A study of Mus musculus with 6 samples.

Results

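Chemokines and their receptors were examined as a gene family in primary osteoblasts of WT mice and of mice with a conditional deletion of the TET enzyme genes. The family was taken as every gene of the count table whose symbol starts with Ccl, Cxcl, Cx3cl, Ccr, Cxcr, Cx3cr or Ackr followed by a number, which gave 61 of 55471 genes. Among them were 37 ligand genes, 18 genes of conventional receptors, 4 genes of atypical receptors and 2 pseudogenes. Only 19 of the 61 had enough counts to be tested, among 13826 tested genes in all. Of these 19, 2 were higher and 3 were lower in the knockout libraries. Over all tested genes 9.07% were higher and 8.63% were lower. Cxcr6 and Cxcl12 rose 10.9-fold and 2.60-fold in the knockout libraries, and Cxcl14, Ackr3 and Ackr4 were 3.15-fold, 2.43-fold and 24.9-fold lower. The call of Ackr3 was lost in 6 of 18 alternative fits.

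Chemokines are small secreted proteins that guide migrating cells. They are grouped as CC, CXC or CX3C by the spacing of conserved cysteines, and are held near their source by heparan sulfate. Conventional receptors couple to inhibitory G proteins, whereas atypical receptors bind chemokines without that coupling and remove them from the surroundings. In bone, CXCL12 made by stromal cells acts through CXCR4 to retain haematopoietic cells, and ACKR3 takes up CXCL12 as a scavenger.

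Poly(A) RNA was sequenced from primary osteoblasts of the calvaria, the skull cap, of 3-day-old C57BL/6 mice after 3 days in culture, with 3 libraries per genotype. Libraries labelled TCKO, for triple conditional knockout, were from mice carrying Prx1-Cre and the floxed alleles Tet1 fl/fl, Tet2 fl/fl and Tet3 fl/fl. Prx1-Cre is active in limb bud mesenchyme and in part of the skull mesenchyme, so cells of other origin in a culture keep the alleles. The libraries labelled WT came from wild-type mice, and whether these carried Cre or floxed alleles is not given in the sources used here.

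Total counts ranged from 8019999 to 10177214 per library, so that 3 counts, taken as the limit that a count of 0 allows, equalled 0.299 to 0.373 CPM, counts scaled to a library of 1e6 reads. Of the targeted genes, Tet1 had WT counts of 98, 131 and 115 against TCKO counts of 68, 51 and 51. Tet2 had 132, 213 and 159 counts in the WT libraries against 159, 121 and 161 in the TCKO libraries. Tet3 had 485, 611 and 452 in WT and 795, 622 and 712 in TCKO. Reads were counted per whole gene, and the exons that Cre removes are not given in the sources used here. Such counts therefore cannot test the deletion, and directions here are those between labels. The paper tested the knockout by RT-qPCR of the Tet genes in calvarial bone, and also measured these genes by RT-qPCR in differentiated osteoblasts of both genotypes. It reports higher CG methylation in TCKO osteoblasts. Over regions that gained methylation it also reports less hydroxymethylcytosine, which TET enzymes make from methylated cytosine. Replicates 1 and 2 of each genotype lay close together, with chi-square over degrees of freedom at 1.69 in WT and 2.04 in TCKO, against 16.5 to 23.3 for pairs with replicate 3. TCKO replicate 3 also stood apart in sex-linked genes, with 4583 counts of Xist against 1 to 4, and 0 counts of Ddx3y against 675 to 1094. Col1a1 was high in every library, at 101033 to 223459 counts, while Bglap and Dmp1, genes of mature osteoblasts and osteocytes, reached at most 2 and 3 counts. These were the only 2 of 12 osteoblast markers with at most 3 counts in every library, so Bglap2, also listed, was above that. Macrophage markers were present, with summed levels of 854, 868 and 447 CPM in WT and 598, 641 and 181 in TCKO.

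The promoters of the 5 genes that passed the test are shown because TET enzymes act on methylated CG dinucleotides. Each sequence runs 5′ to 3′ on the gene's strand from 250 bases before to 50 bases after the start site (RefSeq, GRCm38.p6), with every CG in capitals. The windows lie at chr6:117168285-117168584 (plus strand) for Cxcl12, chr1:90203730-90204029 (plus) for Ackr3, chr13:56296502-56296801 (minus) for Cxcl14, chr9:123806227-123806526 (plus) for Cxcr6 and chr9:104126594-104126893 (minus) for Ackr4.
Cxcl12: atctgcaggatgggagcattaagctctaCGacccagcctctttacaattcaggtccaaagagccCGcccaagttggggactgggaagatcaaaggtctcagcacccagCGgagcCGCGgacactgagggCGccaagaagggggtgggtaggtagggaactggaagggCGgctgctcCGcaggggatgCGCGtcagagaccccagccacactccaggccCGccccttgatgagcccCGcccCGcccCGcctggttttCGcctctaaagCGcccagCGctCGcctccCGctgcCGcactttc
Ackr3: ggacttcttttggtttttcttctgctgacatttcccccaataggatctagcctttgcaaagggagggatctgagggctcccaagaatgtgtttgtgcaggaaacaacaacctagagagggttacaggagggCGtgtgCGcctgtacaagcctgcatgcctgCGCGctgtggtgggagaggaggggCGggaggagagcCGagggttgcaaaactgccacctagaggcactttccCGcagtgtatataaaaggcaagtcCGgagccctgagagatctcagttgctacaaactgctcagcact
Cxcl14: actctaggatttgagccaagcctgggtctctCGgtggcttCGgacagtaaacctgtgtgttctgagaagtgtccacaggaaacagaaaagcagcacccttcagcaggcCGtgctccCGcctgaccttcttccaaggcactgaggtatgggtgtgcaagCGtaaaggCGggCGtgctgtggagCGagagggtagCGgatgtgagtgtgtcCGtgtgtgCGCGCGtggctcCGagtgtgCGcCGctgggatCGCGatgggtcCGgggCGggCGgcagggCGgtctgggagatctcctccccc
Cxcr6: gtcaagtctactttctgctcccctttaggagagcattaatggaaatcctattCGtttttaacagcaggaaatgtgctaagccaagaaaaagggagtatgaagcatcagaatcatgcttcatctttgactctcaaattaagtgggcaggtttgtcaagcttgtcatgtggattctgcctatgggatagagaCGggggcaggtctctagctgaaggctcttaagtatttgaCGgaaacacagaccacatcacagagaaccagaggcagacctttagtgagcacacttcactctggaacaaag
Ackr4: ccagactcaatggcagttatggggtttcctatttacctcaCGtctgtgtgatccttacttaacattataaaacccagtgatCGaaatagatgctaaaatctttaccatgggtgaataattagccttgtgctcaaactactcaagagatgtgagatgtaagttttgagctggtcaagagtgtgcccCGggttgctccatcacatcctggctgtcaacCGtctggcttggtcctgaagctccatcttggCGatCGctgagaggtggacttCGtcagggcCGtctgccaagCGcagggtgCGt

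The windows of Cxcl14 and Cxcl12 held 22 and 20 CG dinucleotides, those of Ackr4 and Ackr3 held 10 and 8, and that of Cxcr6 held 3. Over 32851 mouse promoter windows of the same length the median was 7 and the quartiles were 3 and 20. The gene that rose most therefore had a CG-poor window, and the other gene that rose had a CG-rich one, as did Cxcl14, which fell. The RUNX core TGTGGT, searched on both strands, was found in the windows of Ackr3 and Cxcr6, at -84 and -10 from the start site, and in 16.8% of all windows. The sequence TATAAA, also on both strands, was found in those of Ackr3 and Ackr4, at -8 and -185, and in 13.6% of all windows. The GC box GGGCGG, which itself contains a CG, was found in those of Cxcl12, Cxcl14 and Ackr3 and in 35.7% of all windows. Promoter windows were matched for 44 of the 61 members and 14 of the 19 tested members, and DNA methylation was not analysed here.

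Most of the family was at or near 0 counts. No count was found in any library for 17 members, including Ccl19, Ccl21a and Ccl21b, which attract lymphocytes and dendritic cells to lymphoid tissue, the interferon-induced Cxcl9, and the atypical receptor Ackr2. A further 16 members had at most 1 to 3 counts in a library. Another 9 had more than 3 counts somewhere but too few for the test. These were Ackr1 with 2 to 7 counts, Ccl20 with 0 to 9, Ccl28 with 2 to 12, Ccl3 with 2 to 12, Ccl5 with 0 to 10, Ccl6 with 3 to 14, Ccr10 with 0 to 5, Cxcl2 with 0 to 20 and Cxcl3 with 1 to 20. Ackr1 shares exon bases with Cadm3 on the same strand, so its few counts are uncertain. Ccl19, Ccl21a, Ccl21b and Ccl27a have near-identical copies in the mouse genome, so their counts, those of 0 included, are uncertain. At least 1 count was found for 44 members, and 24 members had counts in all 6 libraries.

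**Figure D1:**
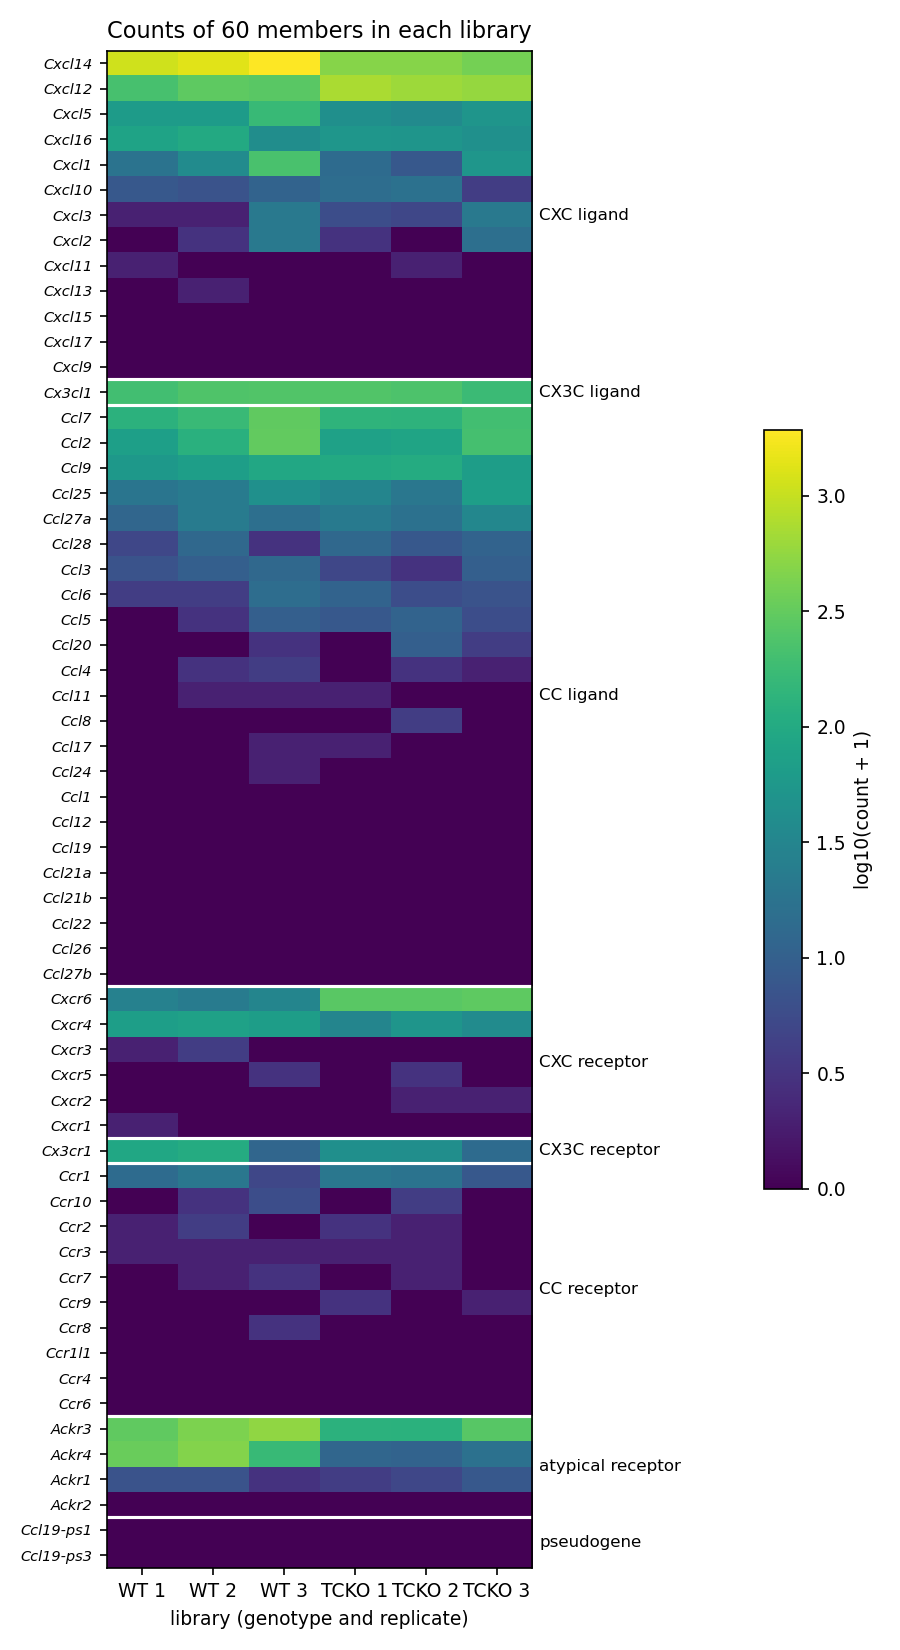
Counts of 60 members (rows, grouped by class and ordered by level) in the 6 libraries (columns), coloured as log10(count + 1). Colour is limited to a few rows per class, with Cxcl14, Cxcl12, Ackr3, Ackr4, Ccl2 and Ccl7 among the brightest, and 17 rows are at 0 throughout.

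Among the 19 tested members, 2 were higher and 3 were lower in TCKO at an adjusted p under 0.05 (edgeR, quasi-likelihood test, Benjamini-Hochberg adjustment over 13826 genes). Over all tested genes, 9.07% were higher and 8.63% were lower by the same rule. All 5 also differed over 2-fold, a rule met by 3.16% of all tested genes in the higher and 3.19% in the lower direction. The median log2 fold change of the 19 members was -0.38. The libraries of the genotypes were separate in CPM for 7 of the 19 members, or 36.8%, and for 38.3% of all tested genes, so non-overlap was no more frequent in the family than elsewhere. With the replicate number as a block the count of lower members was 6 in place of 3, as Cxcl1, Cxcl5 and Cx3cr1 then passed with edgeR adjusted p-values of 0.00894, 0.0370 and 0.0441. With replicates 1 and 2 also summed into 1 sample, the blocked values were 0.0231 for Cxcl1, 0.107 for Cxcl5 and 0.259 for Cx3cr1.

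**Figure D2:**
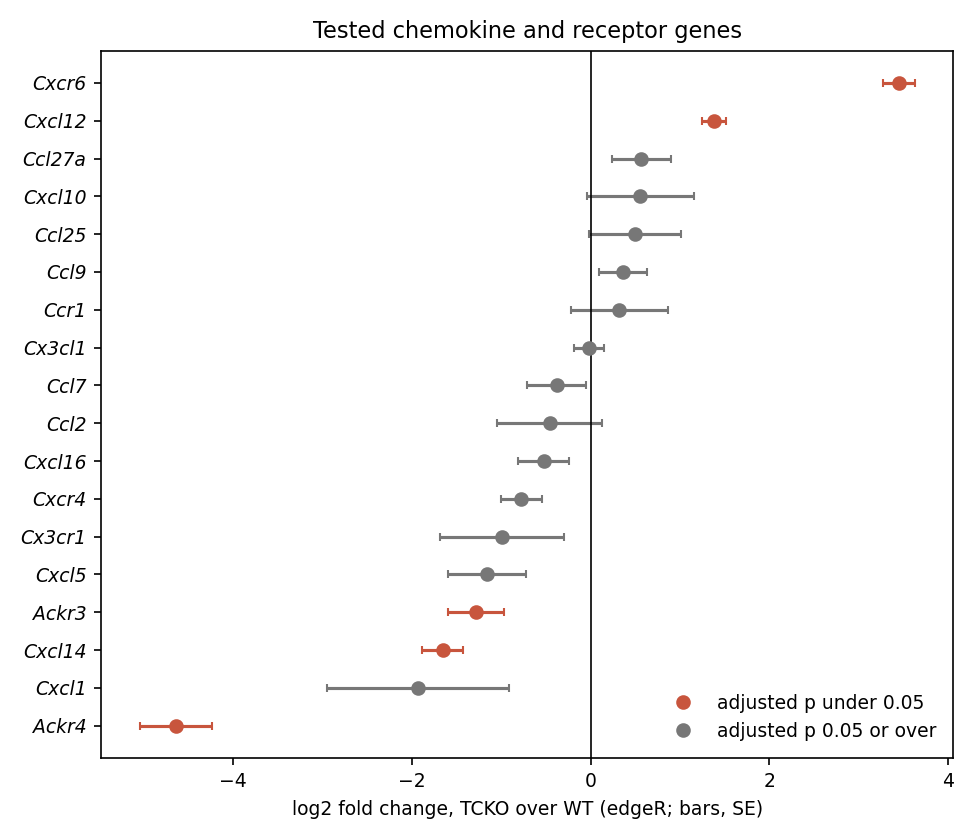
Log2 fold change of TCKO over WT (x axis) for 18 tested members, ordered by value, with bars for the standard error and coloured points for an edgeR adjusted p under 0.05. Cxcr6 at 3.45 and Ackr4 at -4.64 lie at the ends, and the other grey points lie between -1.16 and 0.57, apart from Cxcl1 at -1.93.

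CXCL12 and its receptors were examined first. Cxcl12 (ENSMUSG00000061353, chromosome 6, 117168535 to 117181367, GRCm38), the stromal ligand that retains haematopoietic cells, had 212, 296 and 278 counts in the WT libraries (replicates 1, 2 and 3) against 748, 644 and 585 in the TCKO libraries. Every TCKO library was well above every WT library. Its level rose from 29.6 ± 4.02 to 77.0 ± 10.2 CPM (SD, n = 3), which is a log2 ratio of TCKO over WT of 1.38 ± 0.13 (SE; edgeR adjusted p = 0.000655). On the log2(CPM + 2) scale replicates 1 and 2 differed by 1.52 between genotypes and replicate 3 by 0.92.

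Ackr3 (ENSMUSG00000044337, chromosome 1, 90203980 to 90216751), the scavenging receptor of CXCL12 and CXCL11, had WT counts of 304, 435 and 550 against TCKO counts of 127, 126 and 267. The groups did not overlap, but replicate 3 was the highest library of each genotype, and TCKO replicate 3 approached WT replicate 1. The level went from 49.0 ± 15.7 to 20.04 ± 8.61 CPM, which is a log2 ratio of TCKO over WT of -1.28 ± 0.32 (edgeR adjusted p = 0.0284). Of the 5 calls this was the only one lost under any alternative, in 6 of 18. Its adjusted p was 0.0726 without WT replicate 2, 0.0530 without WT replicate 3, 0.0975 without TCKO replicate 1 and 0.102 without TCKO replicate 2, and it was 0.176 when replicates 1 and 2 were summed into 1 sample. In the fit with the replicate number as a block it was 0.000306.

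Cxcr4 (ENSMUSG00000045382, chromosome 1, 128588199 to 128592293), the signalling receptor of CXCL12, had 68, 75 and 66 counts in the WT libraries against 30, 50 and 38 in the TCKO libraries. All 3 TCKO libraries were below all WT libraries, yet the gene did not pass the test, and its log2 fold change was -0.77 ± 0.23 (edgeR adjusted p = 0.0579). It was under 0.05 in 5 of 18 alternatives and its highest adjusted p over them was 0.168. Counts of Cxcl12 over those of Ackr3 were 0.505 to 0.697 in the WT libraries and 2.19 to 5.89 in the TCKO libraries. Cxcl11, the other ligand of ACKR3, had at most 1 count in a library. None of Cxcl12, Ackr3 and Cxcr4 shares bases with another gene of the table.

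**Figure D3:**
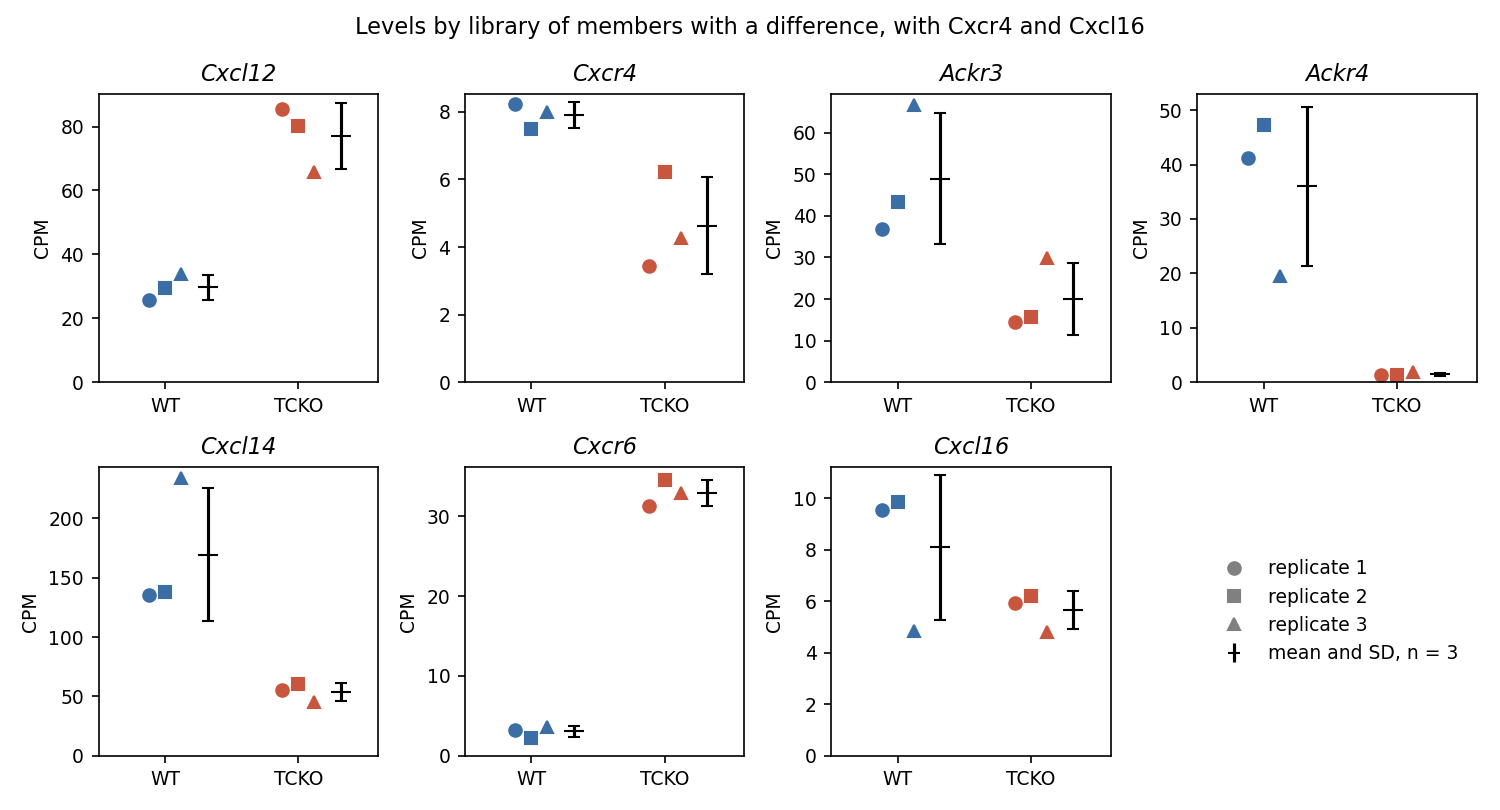
CPM (y axis, from 0) in each library for Cxcl12, Cxcr4, Ackr3, Ackr4, Cxcl14, Cxcr6 and Cxcl16, with a marker for each replicate number and the mean with SD of 3 libraries beside each genotype. The genotypes are separate for all but Cxcl16, and replicate 3 stands apart from replicates 1 and 2 in WT for Ackr4, Cxcl14 and Cxcl16 and in both genotypes for Ackr3.

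Cxcl14 (ENSMUSG00000021508, chromosome 13, 56288643 to 56296551), a CXC ligand made constitutively by many epithelial and stromal cells, had WT counts of 1120, 1385 and 1929 against TCKO counts of 486, 487 and 402. The lowest WT library was over the highest TCKO library by a wide margin. The level went down from 169 ± 56.0 to 53.7 ± 7.87 CPM, which is a log2 ratio of TCKO over WT of -1.66 ± 0.23 (edgeR adjusted p = 0.00268). The difference was larger within replicate 3, at -2.32 on the log2(CPM + 2) scale, than within replicates 1 and 2, at -1.21. Counts of Cxcl12 over those of Cxcl14, which within a library need no scaling for depth, were 0.144 to 0.214 in WT and 1.32 to 1.54 in TCKO. The order of the raw counts was thus opposite in the genotypes, but Cxcl12 has 8176 exon bases and Cxcl14 has 1827. Scaled for length, as TPM, Cxcl14 stayed above Cxcl12 in both, at 257 against 10.1 in WT and 80.1 against 25.7 in TCKO. Of the 3 tested genes within 250 kb of Cxcl14, H2afy, a histone variant gene, was higher (log2 fold change 0.36, edgeR adjusted p = 0.0239), and Tifab and Fbxl21 did not pass. Over all tested genes 9.07% were higher and 8.63% were lower, and 3 neighbours are too few to set against these shares. No tested gene lay within 250 kb of Cxcl12 or Ackr3.

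Cxcr6 (ENSMUSG00000048521, chromosome 9, 123806475 to 123811760) encodes the receptor of CXCL16 and is best known on T cells and natural killer cells. It had 27, 22 and 30 counts in the WT libraries against 274, 278 and 294 in the TCKO libraries. The libraries of each genotype were close to each other, replicate 3 included. The level rose from 3.03 ± 0.75 to 32.9 ± 1.64 CPM, which is a log2 ratio of TCKO over WT of 3.45 ± 0.18 (edgeR adjusted p = 5.7e-05). On the log2(CPM + 2) scale replicates 1 and 2 differed by 2.89 and replicate 3 by 2.63.

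Lymphocyte markers were near the floor in the same libraries. Of 17 markers of leukocytes other than macrophages, 13 had at most 3 counts in every library and 8 had none, among them the T cell genes Cd3d, Cd3e and Cd8a and the natural killer cell gene Nkg7. Their summed level was 1.86 to 3.88 CPM and was no higher in TCKO than in WT. Cxcl16 (ENSMUSG00000018920), the membrane-bound ligand of CXCR6, had WT counts of 79, 99 and 40 against TCKO counts of 52, 50 and 43. These groups overlapped, and the log2 fold change of -0.52 ± 0.28 did not pass the test (edgeR adjusted p = 0.248). Cxcl16 shares 552 of its 3021 exon bases with Zmynd15 on the opposite strand, which had 4 to 14 counts.

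Cxcr6 lies within the span of Fyco1 on the opposite strand, with 0 exon bases in common. Fyco1 had 512 to 650 counts, and its log2 fold change was 0.22 (edgeR adjusted p = 0.123). Within 250 kb of Cxcr6 lay 6 other tested genes, Fyco1 among them, in a window chosen after the values were seen. The only one that passed the test was Xcr1, the receptor of XCL1, which lies 40.6 kb away and had 11, 17 and 18 counts in the WT libraries against 33, 33 and 40 in the TCKO libraries (log2 fold change 1.24 ± 0.26, edgeR adjusted p = 0.0154). Ccr1, in the same window, had a log2 fold change of 0.32 (adjusted p = 0.726).

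Ackr4 (ENSMUSG00000079355, chromosome 9, 104084157 to 104126933), the atypical receptor that removes CCL19, CCL21 and CCL25, had WT counts of 341, 473 and 161 against TCKO counts of 11, 10 and 16. Even the lowest WT library, replicate 3, was far above the highest TCKO library. The level dropped from 36.0 ± 14.6 to 1.43 ± 0.315 CPM, which is a log2 ratio of TCKO over WT of -4.64 ± 0.41 (edgeR adjusted p = 0.000443). On the log2(CPM + 2) scale TCKO minus WT was -3.83 for replicates 1 and 2 and -2.50 for replicate 3.

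Ackr4 shares 479 of its 5380 exon bases, or 8.90%, with Acad11 on the opposite strand, and the strand setting used for counting is not stated. Acad11, an acyl-CoA dehydrogenase gene, had 185, 251 and 178 counts in the WT libraries against 127, 130 and 113 in the TCKO libraries (log2 fold change -0.67 ± 0.13, edgeR adjusted p = 0.0108). Dnajc13, another tested gene within 250 kb, had a log2 fold change of 0.07 and did not pass. Of the ligands of ACKR4, Ccl19, Ccl21a and Ccl21b had no count. Ccl25 had WT counts of 18, 22 and 44 against TCKO counts of 30, 19 and 69. Its log2 fold change of 0.50 ± 0.52 did not pass (edgeR adjusted p = 0.555), and it shares 204 exon bases with Elavl1 on the opposite strand.

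Among family members, the neutrophil attractants Cxcl1, Cxcl2, Cxcl3 and Cxcl5 were highest in replicate 3 within each genotype. Ppbp, a related ligand outside the symbol rule, was not, with TCKO levels of 6.39, 7.58 and 7.40 CPM. It had 20, 34 and 52 counts in WT against 56, 61 and 66 in TCKO (log2 fold change 0.82, edgeR adjusted p = 0.123). Cxcl1 had 17, 38 and 220 counts in the WT libraries against 13, 7 and 53 in the TCKO libraries, and Cxcl5 had 63, 62 and 163 in WT and 42, 36 and 50 in TCKO. For both genes WT replicate 3 was the highest of all 6 libraries. The groups overlapped for Cxcl1 and not for Cxcl5. Their log2 fold changes were -1.93 ± 1.02 and -1.16 ± 0.44, with edgeR adjusted p-values of 0.237 and 0.108. Without WT replicate 3 the value of Cxcl1 was -0.08 (adjusted p = 0.953) and that of Cxcl5 was -0.47 (adjusted p = 0.150). DESeq2 gave Cxcl5 an adjusted p of 0.0380. Cxcl2 and Cxcl3, of the same group of ligands, had 20 counts each in WT replicate 3, and 15 and 20 in TCKO replicate 3. The interferon-induced Cxcl10 had WT counts of 7, 6 and 10 against TCKO counts of 14, 16 and 3 (log2 fold change 0.56, edgeR adjusted p = 0.567).

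No CC ligand or CC receptor passed the test. Of 23 CC ligand and 11 CC receptor genes, 5 and 2 were tested by edgeR, with 0 at an adjusted and 0 at an unadjusted p under 0.05, and DESeq2 called 0 as well. Over all tested genes 9.07% were higher and 8.63% were lower. With so few CC genes tested, 0 calls do not set them apart from other genes. The monocyte attractants Ccl2 and Ccl7 had the most counts. Ccl2 had 70, 119 and 313 counts in the WT libraries against 76, 83 and 206 in the TCKO libraries, and Ccl7 had 129, 169 and 305 in WT and 135, 131 and 192 in TCKO. For both, replicate 3 was the highest library of each genotype and the groups overlapped, and the log2 fold changes were -0.46 ± 0.59 and -0.38 ± 0.33 (edgeR adjusted p = 0.638 and 0.479). Without WT replicate 3 the values were 0.46 for Ccl2 and 0.13 for Ccl7, and without TCKO replicate 3 that of Ccl2 was -1.02, none of them past the test.

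Ccl9, a ligand of CCR1 made by macrophages, had WT counts of 55, 68 and 91 against TCKO counts of 98, 103 and 67, and its log2 fold change was 0.37 ± 0.27 (edgeR adjusted p = 0.398). The genotypes were in opposite order in replicate 3, and among replicates 1 and 2 alone the value was 0.83 (edgeR adjusted p = 4.8e-05). Ccl27a, a ligand of CCR10, had 11, 22 and 15 counts in the WT libraries against 21, 16 and 32 in the TCKO libraries (log2 fold change 0.57, adjusted p = 0.278), and shares 8 exon bases with Il11ra1 on the opposite strand. Ccr1, a receptor of monocytes and macrophages, had 4 to 19 counts in a library. Its log2 fold change was 0.32 (edgeR adjusted p = 0.726).

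Neither gene of the CX3C pair passed the test. Cx3cl1, a membrane-bound ligand, had WT counts of 195, 239 and 246 against TCKO counts of 247, 231 and 173, and its log2 fold change was -0.02 ± 0.17 (edgeR adjusted p = 0.955). Cx3cr1, a receptor of macrophages and microglia, had 89, 103 and 11 counts in the WT libraries against 42, 41 and 13 in the TCKO libraries. The TCKO libraries were below the WT libraries in replicates 1 and 2, whereas in replicate 3 both genotypes were low. The log2 fold change of -0.99 ± 0.69 did not pass (edgeR adjusted p = 0.371), but was -1.48 without WT replicate 3 (adjusted p = 0.0453).

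Macrophage markers were low in the same libraries. Of 16 markers, 14 had replicate 3 as the lowest library of each genotype, as did Cx3cr1, Ccr1 and Cxcl16. Over all tested genes 21.9% did so. Between the genotypes 0 of the 16 were higher and 4 were lower, against 9.07% and 8.63% of all tested genes. The 4 were Spi1, Adgre1, Csf1r and Itgam, at log2 fold changes of -1.83, -1.44, -1.21 and -1.08 (edgeR). The median over the list was -0.88. All 16 log2 fold changes were below 0 in this fit. The part of the macrophages in the values of the receptor genes was not tested, and in such bulk samples fewer cells of a type and less RNA per cell cannot be told apart.

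Per length of transcript, as TPM, the length-scaled share of all transcripts, Cxcl14 was the highest member in both genotypes, at 257 ± 79.1 TPM in WT and 80.1 ± 10.9 in TCKO. In WT it was followed by Ccl7 at 79.9 ± 39.6, Ccl2 at 47.0 ± 38.1 and Ackr3 at 40.6 ± 12.1, whose values lay within their spread, and by Ackr4 at 18.7 ± 7.81 and Cx3cl1 at 18.2 ± 2.10. Cxcl12 was at 10.1 ± 1.17 TPM in WT and 25.7 ± 3.42 in TCKO, where its rank was 5. Cxcr6 went from rank 14 at 4.37 ± 1.03 TPM to rank 3 at 46.5 ± 1.61, behind Cxcl14 and Ccl7. Ackr4 went from rank 5 to rank 25, at 0.727 ± 0.165 TPM.

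Summed over the members of a kind, ligand genes held 241, 255 and 453 CPM in WT and 229, 232 and 218 in TCKO. Of the ligand sum, Cxcl14 took 51.6% to 56.3% in WT and 20.7% to 26.1% in TCKO, while Cxcl12 took 7.44% to 11.6% in WT and 30.1% to 37.3% in TCKO. Conventional receptor genes held 26.8, 24.3 and 15.3 CPM in WT and 43.8, 50.7 and 40.0 in TCKO. Cxcr6 made up 9.02% to 23.8% of that sum in WT and 68.1% to 82.4% in TCKO, so most of the conventional receptor reads in TCKO came from 1 gene. Atypical receptor genes held 78.8, 91.2 and 86.4 CPM in WT and 16.1, 17.4 and 32.5 in TCKO. The WT sum of atypical receptors was steadier than either of its main parts, since Ackr3 was high and Ackr4 low in WT replicate 3.

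**Figure D4:**
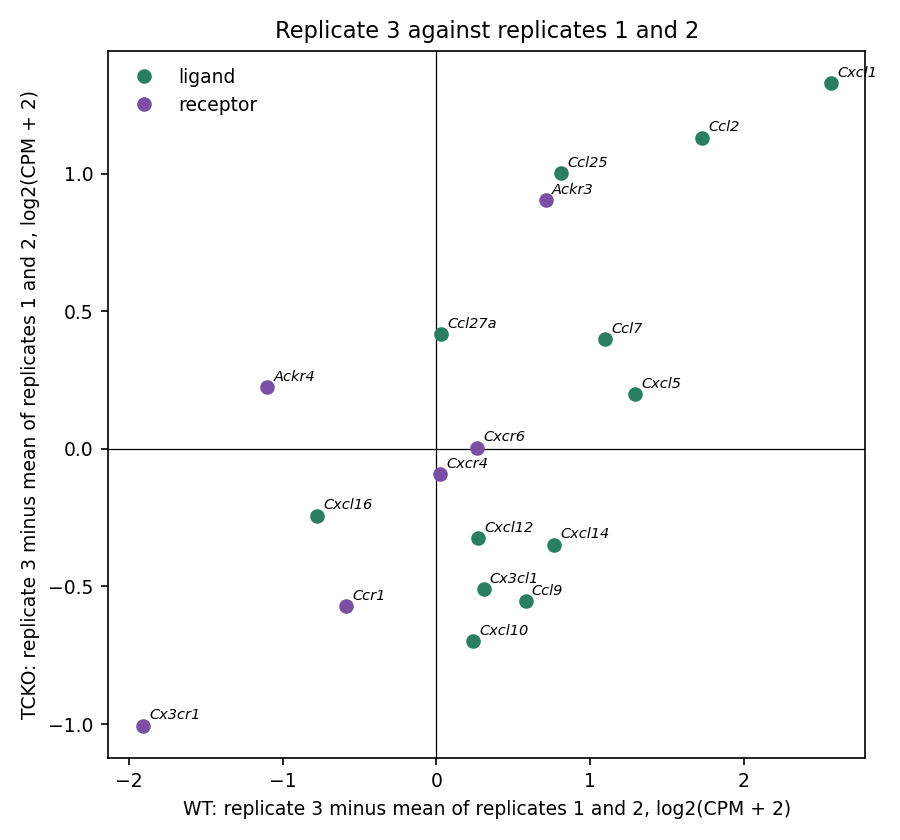
Replicate 3 minus the mean of replicates 1 and 2 on the log2(CPM + 2) scale in WT (x axis) and TCKO (y axis) for 18 tested members, with ligands and receptors in different colours. Cxcl1, Ccl2, Ccl25 and Ackr3 are at the upper right, Cx3cr1 is at the lower left, and Cxcr6 and Cxcr4 are near the origin.

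Replicate 3 was the highest library of both genotypes for 6 of the 19 members, namely Ccl2, Ccl7, Ccl25, Cxcl1, Cxcl5 and Ackr3, and for 22.1% of all tested genes. It was the lowest of both for 4 members, against 21.9% of all tested genes. For Cxcl12, Cxcl14, Cx3cl1, Ccl9 and Cxcl10, replicate 3 was above replicates 1 and 2 in WT and below them in TCKO.

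Other receptors and ligands related to the family were followed in a list of 18 genes in the table. Of 14 tested, 4 were higher and 3 were lower in TCKO, with a median log2 fold change of 0.36 against 0.00020 over all tested genes, of which 9.07% were higher and 8.63% lower. Gpr1, a receptor of the chemoattractant chemerin, had WT counts of 7, 7 and 3 against TCKO counts of 44, 44 and 63, which is a log2 ratio of TCKO over WT of 3.17 ± 0.33 (edgeR adjusted p = 0.000833). Cmklr1, the other chemerin receptor, went the opposite way, with 286, 327 and 226 counts in the WT libraries against 60, 58 and 86 in the TCKO libraries (log2 fold change -1.99 ± 0.16, edgeR adjusted p = 0.000336). The genotypes did not overlap for either receptor. Gper1, a G protein-coupled oestrogen receptor, fell by 2.56 on the log2 scale, from 158, 164 and 45 counts to 29, 23 and 7 (edgeR adjusted p = 0.0195). Cmtm4 and Cmtm7, membrane proteins with a chemokine-like factor domain, had log2 fold changes of -0.69 and 0.42.

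In a list of signalling and desensitisation genes downstream of the receptors, 3 of 52 tested genes were higher and 4 were lower, with a median of -0.01. Both shares were below those of all tested genes, 9.07% and 8.63%. Rgs3 and Rgs10, which shorten G protein signals, fell by 1.58 and 0.88 on the log2 scale. Elmo1, which links receptors to RAC activation, fell by 0.98. Gng2, a G protein gamma subunit, rose by 1.09, Tiam1, a RAC activator, by 0.74, and the kinase Src by 0.50. Most of the list, 45 genes, did not pass. The blocked counts were 6 higher and 8 lower.

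Among genes that induce chemokines, 2 of 38 tested were higher and 9 were lower, with a median of -0.09. Over all tested genes 9.07% were higher and 8.63% lower, so the share of the list was below the former and above the latter. Tlr4, the receptor of bacterial lipopolysaccharide, had WT counts of 261, 360 and 260 against TCKO counts of 78, 68 and 40, which is a log2 ratio of TCKO over WT of -2.18 ± 0.23 (edgeR adjusted p = 0.00083). Il1rn, an inhibitor of interleukin-1, the RNA sensor Tlr3 and the interferon receptor gene Ifngr1 fell by 1.18, 0.83 and 0.68. Tnfaip3, an inhibitor of NF-kB, and Il1rap, the shared subunit of interleukin-1 receptors, rose by 1.53 and 1.43. Of the inducing cytokines themselves, Il1a and Il1b had at most 3 and 2 counts, and Il17a, Ifnb1 and Ifng had none. These were the only 5 of the 45 listed genes with at most 3 counts in every library. The other inducing cytokines on the list therefore had more than 3 counts in some library. With the block 4 were higher and 8 lower.

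Among genes that cut chemokines or hold them on heparan sulfate, 5 of 29 tested were higher and 7 were lower, with a median of 0.04, against 9.07% and 8.63% of all tested genes. Mmp3, a matrix metalloproteinase, had 4, 5 and 10 counts in the WT libraries against 169, 116 and 27 in the TCKO libraries, which is a log2 ratio of TCKO over WT of 4.06 ± 0.76 (edgeR adjusted p = 0.00998). All TCKO libraries were above all WT libraries, replicate 3 by the least. Dpp4, a protease that inactivates CXCL12, had WT counts of 4, 1 and 1 against TCKO counts of 17, 13 and 26 (log2 fold change 3.17 ± 0.55, edgeR adjusted p = 0.00744). Mmp12, Fap, Hs6st2 and Mmp2 fell by 1.92, 1.30, 1.04 and 0.83 on the log2 scale. Mmp12 is a macrophage protease, Fap is a relative of Dpp4 made by stromal cells, and Hs6st2 adds sulfate to heparan sulfate.

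Markers of other cells that could supply these transcripts were also read, with calls from the same edgeR fit. In that fit 9.07% of all tested genes were higher and 8.63% were lower. Of 12 endothelial markers 3 were tested, of which Esam was higher and Erg was lower, and the 12 together held 7.65 to 10.9 CPM in a library. Of 10 markers of reticular stroma and pericytes, cells in which Cxcl12 is characteristically high, 2 were higher (Mcam and Ebf3) and 4 were lower (Lepr, Cspg4, Pdgfrb and Foxc1), with Lepr falling by 2.21 on the log2 scale. Of 8 tested osteoblast markers, 1 was higher (Spp1) and 4 were lower, Alpl, Col1a1 and Runx2 among them. The part of these changes in the values of Cxcl12 and the other members was not tested.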

How the data were processed

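RNA was sequenced from primary calvarial osteoblasts of WT and TCKO mice, 3 libraries each. The authors aligned reads to GRCm38 (Ensembl release 99) with STAR 2.7.0e and counted them per gene with featureCounts 2.0.0, per the study's methods and the submitters' processing notes. The deposited values are raw counts. The kit marked strand, but the strand setting of the counting, and how reads shared by near-identical genes were treated, are not given in the sources used here. Groups and replicate numbers came from the titles. The columns holding gene length were used only for TPM and for the alternative RPKM filter.

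Genes were filtered with filterByExpr, which left 13826, scaled with TMM and tested with edgeR 4.0.16 (glmQLFit, glmQLFTest) in R 4.3.3 over all 6 libraries without covariates, with Benjamini-Hochberg adjustment over all tested genes. Passing the test means an adjusted p under 0.05. The study used DESeq2 with a fold over 2 and an RPKM minimum of 0.24, and both that filter and DESeq2 1.42.0 were run as alternatives. CPM use TMM-scaled library sizes. Standard errors came from the F statistic. Nothing in the labels says that libraries came from separate litters or cultures, so p-values measure the spread between these libraries. Floors of 3 counts cover counting error only, since reads are not independent molecules. The fits were tested on simulated data.

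Members and gene lists were chosen with earlier results of these data known. Members are named or counted, with values per library for those past the test, and up to 6 genes past the test are named per pathway list. A few genes that enter the counts are not reported here by name or plotted. Replicates of the same number correlated across genes in their deviations from the genotype means, at 0.204, 0.214 and 0.347 for numbers 1, 2 and 3. Numbers 1 and 2 crossed correlated as much, at 0.225 and 0.188, while pairs of 3 with 1 or 2 lay between -0.282 and -0.249, so the values set replicate 3 apart without telling 1 from 2. The numbers, which come from the titles, were not used in the main fit. A fit with the number as a block was run as an alternative because each same-number correlation was over 0.1.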

Additional observations from a re-analysis of the deposited data

How the results depend on the processing

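Cxcr6, Cxcl12, Cxcl14 and Ackr4 kept their direction and an adjusted p under 0.05 in each of 18 alternative fits, with highest adjusted p-values of 0.00988, 0.0317, 0.0424 and 0.0223, all with replicates 1 and 2 summed. Ackr3 passed in 12 of 18, and the robust fit also lost it (0.0509). Over all tested members, 305 of 335 comparisons with an alternative stayed on the same side of the threshold, 8 of them with the sign turned below it, 6 were lost, 23 gained and 1 reversed. The reversal was Cx3cl1, at 0.26 (adjusted p = 0.0351) from replicates 1 and 2 only. The number of members lower in TCKO, 3, was 6 with no filter, 6 with the replicate block, 7 with a term for replicate 3 and 8 from replicates 1 and 2 only, and the number lower over 2-fold was 5 in each of these. The number higher, 2, was 5 from replicates 1 and 2 only. The cause was not tested. The replicate block changed no other call of a member.

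The counts of the pathway lists were less stable. With replicates 1 and 2 summed, edgeR gave 1 higher and 1 lower among relatives, 0 and 1 in signalling, 1 and 1 among inducers, and 0 and 0 in processing and retention. The zeros had 4 in signalling and 5 and 7 in processing at an unadjusted p under 0.05, and DESeq2 on the full set of libraries gave 4, 6 and 7. Adding the block to the sums gave 1 higher among relatives, 2 lower in signalling, 2 lower among inducers and 2 higher in processing. No filter gave 5 higher in signalling and 4 among inducers, and a mean of at least 50 counts gave 2 higher among relatives. The block gave 6 higher and 8 lower in signalling and 4 higher among inducers. A term for replicate 3 gave 7 and 10 in signalling and 7 higher among inducers. Replicates 1 and 2 only gave 10 and 12 in signalling, 8 higher among inducers and 11 higher in processing. Leaving out 1 library at a time gave 1 to 6 higher and 2 to 3 lower among relatives, 3 to 6 and 2 to 7 in signalling, 2 to 4 and 2 to 7 among inducers, and 3 to 8 and 4 to 7 in processing. The highest counts came without WT replicate 3 or TCKO replicate 3. Of 54 list genes past the test, 171 of 960 such comparisons were lost and 0 reversed. The cause of these shifts was not tested.

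For 42 of 61 members the counts were too low for the test, and a difference among them was not detectable at this depth. Low depth and lack of expression cannot be told apart for the 17 with no count.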
